A study of Mus musculus with 10 samples.

Results

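Proximal tubule cells of the kidney take up filtered protein through megalin, cubilin and a small set of partner proteins, and the transcripts of 8 such genes were examined here in obstructed mouse kidneys. The genes Lrp2, Cubn, Amn, Dab2, Clcn5, Ocrl, Rab11fip3 and Ctns were chosen for their known roles in this uptake and matched by symbol, and they make up 8 of the 54532 genes that were counted. Earlier results of these data were known when these genes, and the gene lists set beside them, were chosen. Filtered albumin, hormones and vitamin carriers bind megalin and cubilin at the apical membrane, are drawn in by clathrin-coated pits, and pass through acidified endosomes to lysosomes, while the receptors return to the surface. Inherited loss of several of these genes causes loss of low molecular weight protein in the urine. The proximal tubule is also the segment that is reshaped and lost when a ureter is blocked.

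Male wild-type mice on the C57BL/6 background had a ureter tied off at 8 weeks of age (unilateral ureteral obstruction, UUO), and their obstructed kidneys were taken 14 days later. The treated mice received dimethyl malonate (DMM), an ester whose product malonate blocks succinate dehydrogenase, by intraperitoneal injection at 40 mg/kg every other day, and the controls received PBS. Bulk RNA sequencing of whole kidney gave a single library for each of 5 PBS and 5 DMM mice. Every kidney was obstructed, and unobstructed kidneys were not analysed here, so each difference below is between treated and untreated obstructed kidneys. Total counts per library were between 16457500 and 18078800 in the PBS group and between 15722500 and 19475800 in the DMM group. The members drew between 407 and 41451 reads each in any library.

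Before the results, 3 libraries have to be set apart. PBS replicate 3 and DMM replicate 1 carry a weight of 0 in the deposited group means, while the other 8 libraries carry weights between 0.227 and 0.271. The methods describe 5 replicates per group, and no reason for these weights is given. Both libraries lay on the side of the other group for Lrp2, so that leaving them out widened its difference, and each p over the 8 libraries is conditional on that choice. DMM replicate 1 correlated with the PBS libraries at a mean r of 0.984 over log2 CPM of 16505 genes and with its own group at 0.952. DMM replicate 2 was also nearer to the PBS libraries (0.972) than to its own group (0.965). DMM replicates 3 and 5 were about as near to both (0.961 and 0.962, and 0.961 and 0.961). These own-group means include DMM replicate 4, and no means without it are given here. Which group DMM replicates 2, 3 and 5 were nearer to may therefore rest on that library. PBS replicate 3 stood at 0.974 with its own group and 0.965 with the other. DMM replicate 4 had the lowest mean correlation with its own group, 0.916, and its long genes were high and its short genes low. It had the largest total count and the fewest genes with a count, 20029 against 22898 to 24083 in the other 9 libraries, and no RNA quality value was available for any library. It was the highest of the 10 kidneys for Lrp2, Cubn, Clcn5 and Ocrl. In that library, 3344 genes of at least 7 kb had a median log2 deviation of 0.51 from their mean over the 10 libraries, and 3120 genes under 2 kb one of -0.58, against -0.087 to -0.035 and 0.035 to 0.14 in the other 9 libraries. The members are therefore given over all 10 libraries, over the 8 libraries without PBS replicate 3 and DMM replicate 1, and without DMM replicate 4. The 8 are part of the 10, so that neither set is an independent check of the other.

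Lrp2 and Cubn, the genes of the paired receptors, had the highest fold changes of the 8 members and were called higher in DMM kidneys over the 8 libraries, though not over all 10. A gene was called when edgeR's quasi-likelihood F test gave an adjusted p under 0.05 over all tested genes and the fold change was above 1.5. With these rules 2 of 8 members were called higher and 0 lower over the 8 libraries, beside 2.73% and 3.56% of the 16550 tested genes. Every DMM kidney of the 8 lay above every PBS kidney for 4 members, Lrp2, Cubn, Dab2 and Clcn5, beside 9.45% of tested genes. At p under 0.05 before adjustment and the same fold change, 3 members were higher (Lrp2, Cubn and Rab11fip3) and 0 lower, beside 6.45% and 7.24% of genes. With all 10 libraries edgeR called 0 of 8 members and 0% of 16505 genes higher, and 0 members and 0% of genes lower, and DESeq2 also called 0 members, with 14 genes higher and 36 lower. A p under 0.05 before adjustment was reached with that fold change by 2 members, Lrp2 and Cubn, both higher, and by 0 in the lower direction, beside 1.91% and 4.11% of genes. The groups overlapped for each of the 8 members over all 10 libraries, and 0.794% of tested genes had every DMM kidney above every PBS kidney. All 8 fitted log2 fold changes were above 0 in both sets, beside 8715 of 16505 and 8672 of 16550 genes. They were below 0 in 11 of 280 refits, all of Amn, Ocrl or Ctns. With library size alone these were Ocrl (-0.060 over 10 and -0.094 over 8) and Ctns (-0.014 and -0.040), and Ocrl also without DMM replicate 4 (-0.15 and -0.20) and after the GC and length correction (-0.026 and -0.046). Amn was below 0 over the 10 without PBS replicate 4 (-0.0074) or DMM replicate 3 (-0.025), and Ctns over the 8 without DMM replicate 2 (-0.014). The median of the 8 members was 0.37 over all 10 and 0.57 over the 8 libraries, against 0.019 and 0.021 for all tested genes. DESeq2 called 2 members over the 8 libraries, Lrp2 and Cubn, both higher, beside 749 genes higher and 911 lower of 30116. These 30116 are all genes with a p in DESeq2, not passed through filterByExpr. Shares of them are therefore not comparable with those of edgeR. Without DMM replicate 4 the other 7 of the 8 gave 3 members called higher, Lrp2, Cubn and Rab11fip3, and 1129 genes higher and 1281 lower in place of 452 and 590. Without PBS replicates 1, 2, 4 or 5 or DMM replicates 3 or 5, each left out by itself, 407 to 592 genes were called, and with all 10 libraries but DMM replicate 1, 486. Without PBS replicate 5, Lrp2 was no longer called (adjusted p = 0.0590, edgeR), which left Cubn as the called member. With the replicate number as a block, edgeR called 0 members and 0 genes over the 8 libraries. In that fit 790 genes were higher and 1021 lower at p under 0.05 before adjustment and that fold change. Among the 8, only numbers 2, 4 and 5 have a kidney in both groups. PBS replicate 1 and DMM replicate 3 therefore added nothing to the blocked contrast. The blocked log2 fold changes were 2.10 for Lrp2 and 1.72 for Cubn. In whole-kidney RNA, fewer proximal tubule cells and less of a transcript per cell cannot be told apart.

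Lrp2 encodes megalin, a very large member of the LDL receptor family that binds filtered proteins and carries them into the cell (ENSMUSG00000027070, chromosome 2, 69424340 to 69586065 of mm10, minus strand). Its level in CPM, the read count relative to a library total scaled by TMM, was 478, 449, 1142, 219.6 and 358 in PBS replicates 1 to 5 and 355, 913, 1189, 2504 and 1277 in DMM replicates 1 to 5. PBS replicate 3 lay with the DMM kidneys and DMM replicate 1 with the PBS kidneys, so that the groups overlapped over all 10 libraries and were separate once both were left out. DMM replicate 4 was the highest library, and PBS replicate 4 the lowest. Over the 8 libraries Lrp2 was at 376 ± 116 CPM (SD, n = 4) in PBS and 1471 ± 706 CPM (SD, n = 4) in DMM kidneys, and its log2 fold change was 1.97 with a standard error (SE) of 0.35 and an adjusted p of 0.0138 (edgeR). Over all 10 it was at 529 ± 357 CPM (SD, n = 5) in PBS and 1248 ± 789 CPM (SD, n = 5) in DMM kidneys, with a log2 fold change of 1.24 (SE 0.52, adjusted p = 0.430 in edgeR), so that the call was not made. The p before adjustment was 0.0351. Leaving out DMM replicate 4 brought the log2 fold change to 1.58 (SE 0.24, adjusted p = 0.00177 in edgeR) among the 8 libraries, and to 0.82 among all 10. With PBS replicate 3 alone left out of the 10 it was 1.73, and with DMM replicate 1 alone left out 1.47, in both cases with no call (adjusted p = 0.264 and 0.118, edgeR).

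Cubn encodes cubilin, a peripheral membrane receptor that binds albumin, transferrin and the complex of intrinsic factor with vitamin B12, and that depends on megalin and amnionless for its uptake (ENSMUSG00000026726, chromosome 2, 13276338 to 13491813, minus strand). The Cubn level was 117, 133, 243, 73.7 and 104 CPM in PBS replicates 1 to 5 and 101, 196, 351, 526 and 352 CPM in DMM replicates 1 to 5. The order of the kidneys was close to that of Lrp2, with PBS replicate 3 above DMM replicate 2, DMM replicate 1 within the PBS range, and DMM replicate 4 at the top. Cubn had 107 ± 25.1 CPM (SD, n = 4) in PBS and 356 ± 135 CPM (SD, n = 4) in DMM kidneys over the 8 libraries and a log2 fold change of 1.73 (SE 0.30, adjusted p = 0.0113 in edgeR). With PBS replicate 3 and DMM replicate 1 included, the values were 134 ± 64.5 CPM (SD, n = 5) in PBS and 305 ± 163 CPM (SD, n = 5) in DMM kidneys and the log2 fold change was 1.18 (SE 0.42, adjusted p = 0.388 in edgeR), at an unadjusted p of 0.0175. Without DMM replicate 4 the log2 fold change was 1.48 (SE 0.23, adjusted p = 0.00215 in edgeR) over the other 7 of the 8 libraries and 0.90 over the other 9 of all 10.

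Amn encodes amnionless, the short transmembrane partner that cubilin needs to reach the apical membrane (ENSMUSG00000021278, chromosome 12, 111271095 to 111276426, plus strand). Amn was at 69.0, 64.1, 95.5, 48.3 and 69.4 CPM in PBS replicates 1 to 5 and at 61.2, 88.6, 98.4, 31.8 and 90.5 CPM in DMM replicates 1 to 5. DMM replicates 2, 3 and 5 were above PBS replicates 1, 2, 4 and 5 and close to PBS replicate 3, whereas DMM replicate 4 was the lowest of the 10 libraries. Amn was not called in either set, with a log2 fold change of 0.30 (SE 0.31, adjusted p = 0.623 in edgeR) over the 8 libraries and 0.098 (SE 0.28, adjusted p = 0.898 in edgeR) over all 10. When DMM replicate 4 was left out of the 8, the log2 fold change was 0.56 (SE 0.12, adjusted p = 0.00776 in edgeR), which passed the threshold on p and missed the one on fold change. Its value over all 10 libraries without DMM replicate 4 was 0.29, and without PBS replicate 4 or DMM replicate 3 it was just below 0, at -0.0074 and -0.025. Per kb of gene length, Lrp2 stood to Amn at a ratio of 0.502 to 1.32 in the PBS kidneys, at 0.641, 1.14, 1.33 and 1.56 in DMM replicates 1, 2, 3 and 5, and at 8.68 in DMM replicate 4. The ratio of Lrp2 to Cubn on the same scale stayed between 2.67 and 4.26 in all 10 kidneys.

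**Figure D1:**
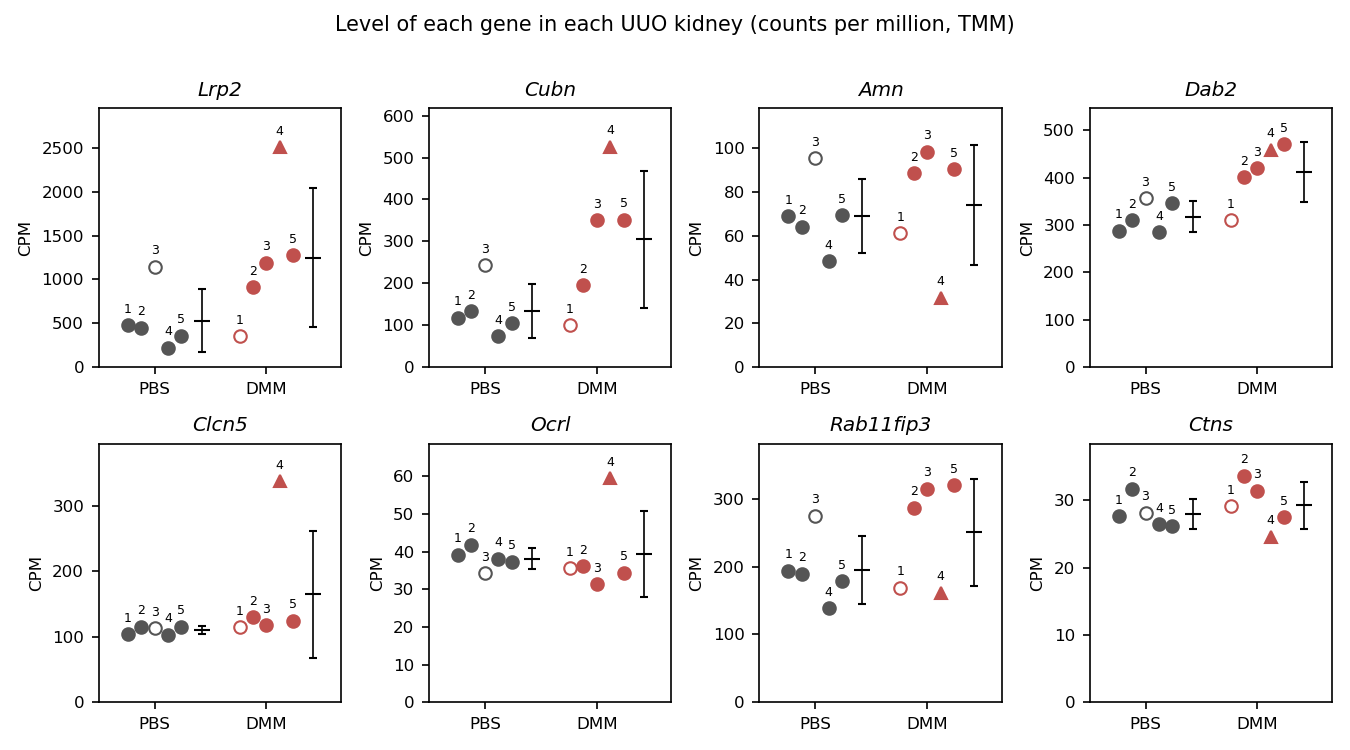
Level of the 8 genes in each of the 10 UUO kidneys, in TMM-scaled CPM, with the replicate number above each point and the mean ± SD of 5 kidneys beside it. Open circles mark PBS replicate 3 and DMM replicate 1 and triangles DMM replicate 4, which was highest for Lrp2 at 2504 CPM and lowest for Amn at 31.8 CPM.

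Dab2 encodes an adaptor that binds the cytoplasmic tail of megalin and links it to clathrin (ENSMUSG00000022150, chromosome 15, 6299788 to 6440712, plus strand). Dab2 was at 288, 310.4, 356, 285 and 346 CPM in PBS replicates 1 to 5 and at 310.3, 401, 419.6, 459 and 470.4 CPM in DMM replicates 1 to 5. DMM replicates 2 to 5 were all above every PBS kidney, PBS replicate 3 included, and DMM replicate 1 was within the PBS range. The level was 308 ± 28.2 CPM (SD, n = 4) in PBS and 437 ± 32.8 CPM (SD, n = 4) in DMM kidneys over the 8 libraries. The log2 fold change there, 0.51 (SE 0.12, adjusted p = 0.0338 in edgeR), passed the threshold on p but not that on fold change. With all 10 it stood at 0.38 (SE 0.13, adjusted p = 0.387 in edgeR). The adjusted p over the 8 was above 0.05 without PBS replicates 1, 2, 4 or 5 (edgeR, 0.105, 0.102, 0.116 and 0.0676) or DMM replicates 3 or 5 (edgeR, 0.0836 and 0.105), each left out by itself. It was also above 0.05 with library size alone (0.0661), no filter on low counts (0.0808) and the replicate block (0.407, edgeR). DMM replicate 4 was not extreme for Dab2, and without it the value over the other 7 of the 8 libraries was 0.48 (SE 0.087, adjusted p = 0.00394 in edgeR). The highest and the lowest kidney of a group differed 1.25-fold in PBS and 1.52-fold in DMM kidneys for Dab2, against 5.20-fold and 7.05-fold for Lrp2. Without PBS replicate 3 and DMM replicate 1 these spans were 1.21-fold and 1.17-fold for Dab2 and 2.18-fold and 2.74-fold for Lrp2.

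Clcn5 encodes a chloride and proton exchanger of early endosomes, whose loss causes Dent disease (ENSMUSG00000004317, chromosome X, 7153810 to 7319358, minus strand). Its level was 104, 116, 113, 103 and 116 CPM in PBS replicates 1 to 5 and 115, 129.9, 117, 338 and 125 CPM in DMM replicates 1 to 5. DMM replicate 4 was far above all other kidneys, DMM replicates 2, 3 and 5 were just above the PBS range, and DMM replicate 1 was inside it. The log2 fold change of 0.69 (SE 0.33, adjusted p = 0.268 in edgeR) over the 8 libraries was 0.18 (SE 0.068, adjusted p = 0.0830 in edgeR) without DMM replicate 4. Over all 10 libraries it was 0.58 with that library and 0.14 without it (adjusted p = 0.491 and 0.289, edgeR), and Clcn5 was called in none of these fits.

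Ocrl encodes a phosphatase that removes a phosphate from phosphoinositides on endosomes and clathrin-coated pits, and its loss causes Lowe syndrome (ENSMUSG00000001173, chromosome X, 47912387 to 47965868, plus strand). Ocrl was at 39.2, 41.8, 34.3, 38.1 and 37.3 CPM in PBS replicates 1 to 5 and at 35.6, 36.2, 31.4, 59.4 and 34.5 CPM in DMM replicates 1 to 5. DMM replicate 4 was again the highest kidney, and the other 4 DMM kidneys lay below the PBS median of 38.1 CPM. The log2 fold change of 0.047 over all 10 libraries and 0.044 over the 8 (adjusted p = 0.918 and 0.922, edgeR) turned to -0.15 and -0.20 without DMM replicate 4 (adjusted p = 0.315 and 0.0746, edgeR). The direction of Ocrl therefore rested on DMM replicate 4, and it also turned with scaling by library size alone, to -0.060 over all 10 and -0.094 over the 8 libraries.

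Rab11fip3 encodes an effector of the GTPase Rab11 that acts in the return of endosomal cargo to the surface (ENSMUSG00000037098, chromosome 17, 25989036 to 26069409, minus strand). Rab11fip3 was at 194, 189, 275, 138 and 178 CPM in PBS replicates 1 to 5 and at 169, 287, 315, 162 and 319 CPM in DMM replicates 1 to 5. DMM replicates 2, 3 and 5 were above every PBS kidney, whereas DMM replicates 1 and 4 lay among the PBS kidneys. Its log2 fold change was 0.63 (SE 0.22, adjusted p = 0.135 in edgeR) over the 8 libraries and 0.36 (SE 0.24, adjusted p = 0.567 in edgeR) over all 10, with a call in neither. Without DMM replicate 4 it was called over the other 7 of the 8 libraries, with a log2 fold change of 0.81 (SE 0.11, adjusted p = 0.00121 in edgeR). The same step among all 10 libraries gave 0.48 (adjusted p = 0.299, edgeR). A correction of each library for GC content and transcript length, chosen after the data were seen, also led to a call over the 8 libraries, at 0.78 (adjusted p = 0.0179, edgeR).

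Ctns encodes cystinosin, which exports cystine from lysosomes and whose loss causes cystinosis (ENSMUSG00000005949, chromosome 11, 73183596 to 73199042, minus strand). Ctns was at 27.6, 31.7, 28.1, 26.4 and 26.1 CPM in PBS replicates 1 to 5 and at 29.1, 33.7, 31.4, 24.6 and 27.5 CPM in DMM replicates 1 to 5. The groups overlapped almost entirely, and DMM replicate 4 was the lowest kidney. The log2 fold change of Ctns was 0.065 (SE 0.14, adjusted p = 0.824 in edgeR) over the 8 libraries and 0.063 (SE 0.11, adjusted p = 0.830 in edgeR) over all 10. Both values were smaller than their standard error. Scaling by library size alone gave -0.040 and -0.014, and leaving DMM replicate 2 out of the 8 libraries gave -0.014.

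**Figure D2:**
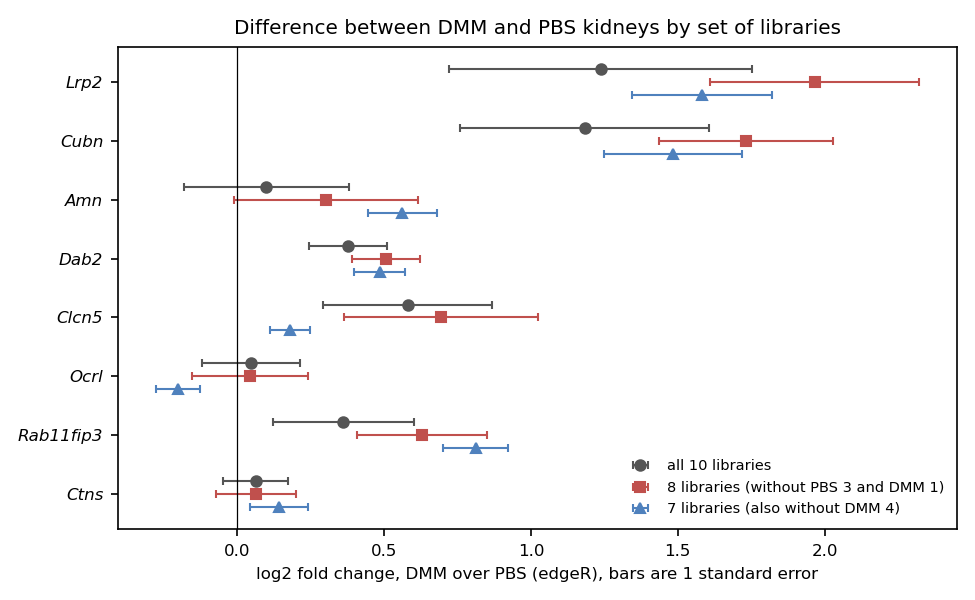
Log2 fold change of DMM over PBS kidneys for the 8 genes, with 1 standard error, over all 10 libraries, over the 8 without PBS replicate 3 and DMM replicate 1, and over the 7 that also leave out DMM replicate 4. Lrp2 stood at 1.24, 1.97 and 1.58 in the 3 sets, and Ocrl at 0.047, 0.044 and -0.20.

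To set the members beside each other, levels were divided by the gene length that the authors deposited (CPM per kb). In the 5 PBS kidneys Dab2 was the most abundant member at 43.2 ± 4.45 CPM per kb (SD, n = 5). Amn followed at 37.6 ± 9.21, Lrp2 at 31.7 ± 21.4 and Rab11fip3 at 28.7 ± 7.33 CPM per kb (SD, n = 5). A lower group was made up of Clcn5 at 9.63 ± 0.542, Cubn at 8.99 ± 4.32, Ctns at 8.26 ± 0.659 and Ocrl at 4.02 ± 0.290 CPM per kb (SD, n = 5). Most neighbours in this order overlapped. Dab2 was above Amn in 4 of 5 PBS kidneys, Amn above Lrp2 in 4, Lrp2 above Rab11fip3 in 2, Clcn5 above Cubn in 4 and Cubn above Ctns in 1. Rab11fip3 was above Clcn5, and Ctns above Ocrl, in 5 of 5. Without PBS replicate 3 the order turned in PBS kidneys, with Lrp2 at 22.5 below Rab11fip3 at 25.8, and Cubn at 7.17 below Ctns at 8.25 CPM per kb. In the DMM kidneys Lrp2 came first, at 74.7 ± 47.2 CPM per kb (SD, n = 5), and was above Dab2, at 56.1 ± 8.66, in 4 of 5 kidneys. Its lead was largest in DMM replicate 4, at 150 against 62.5 CPM per kb. In DMM replicates 1, 2, 3 and 5 Lrp2 was at 21.3, 54.7, 71.2 and 76.5 CPM per kb. Dab2 was there at 42.3, 54.6, 57.2 and 64.1. Means of the DMM group without DMM replicate 4 are not given here, so the first place of Lrp2 may rest on that library. Cubn, at 20.4 ± 10.9 CPM per kb, was above Clcn5, at 14.4 ± 8.45, in 4 of 5 DMM kidneys, while Ctns and Ocrl kept the last places at 8.63 ± 1.03 and 4.15 ± 1.20. Cubilin mRNA was thus less abundant per kb than that of its partner amnionless in 5 of 5 PBS kidneys and in 4 of 5 DMM kidneys, with a ratio of Cubn to Amn between 0.185 and 0.314 in PBS kidneys, between 0.203 and 0.480 in DMM replicates 1, 2, 3 and 5, and of 2.04 in DMM replicate 4.

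The members also differed in how much they varied between kidneys that had the same treatment. The SD of log2 CPM among the 5 PBS kidneys was 0.86 for Lrp2 and 0.63 for Cubn, higher than in 97.4% and 93.5% of 16505 genes, whose median SD was 0.18. Without PBS replicate 3 the SDs were 0.51 and 0.37, higher than in 91.3% and 83.4% of genes, with a median of 0.15. Amn and Rab11fip3 both had an SD of 0.35, or of 0.25 and 0.22 without that library. Dab2, at 0.15, Clcn5, at 0.082, Ocrl, at 0.10, and Ctns, at 0.11, were below the median gene. The level spread 5.20-fold for Lrp2 and 3.30-fold for Cubn between the highest and the lowest PBS kidney, and 1.12-fold for the endosomal Clcn5. Without PBS replicate 3 it was 2.18-fold for Lrp2 and 1.80-fold for Cubn. In DMM kidneys the SD of Clcn5 was 0.66 and that of Ocrl 0.36, beside a median of 0.40 over all tested genes. These SDs were, without DMM replicate 4, 0.080 and 0.091, beside a median of 0.20.

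Across the 10 kidneys, Lrp2 and Cubn moved together, with a Pearson r of 0.98 between their log2 CPM and 0.98 after the group means were taken off (n = 10). Spearman's rho was 0.99. All 28 pairs of members were computed, as a description of libraries that share a normalization. Dab2 had an r of 0.88 with Lrp2 and 0.91 with Cubn (n = 10). For Amn and Rab11fip3 the weak relation to Lrp2 over all 10 libraries rested on DMM replicate 4. With all 10 libraries Amn had an r of 0.047 with Lrp2 and Rab11fip3 one of 0.56, and without DMM replicate 4 the values were 0.97 and 0.99 (n = 9). Lrp2 and Clcn5 had 0.69 with all 10 libraries and 0.64 without that one. Ocrl went from 0.29 to -0.66 and Ctns from -0.040 to 0.41. The pair of endosomal members, Clcn5 and Ocrl, stood at 0.84 with all 10 libraries and at -0.38 without DMM replicate 4.

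**Figure D3:**
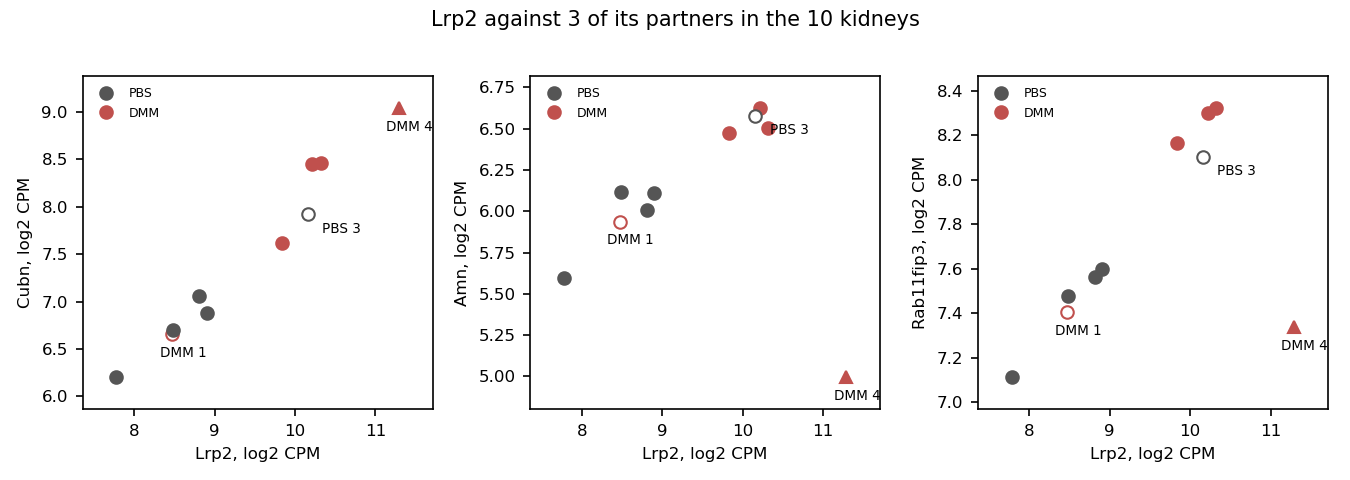
Log2 CPM of Cubn, Amn and Rab11fip3 against that of Lrp2 in the 10 UUO kidneys, with PBS in grey and DMM in red, PBS replicate 3 and DMM replicate 1 as open circles and DMM replicate 4 as a triangle. DMM replicate 4 follows the other kidneys for Cubn (r = 0.98 with it and 0.98 without it) and lies far below them for Amn (r = 0.047 and 0.97).

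The place of DMM replicate 4 relative to DMM replicates 2, 3 and 5 was high for the longest members and low for the shortest. Its log2 CPM minus the mean of those 3 kidneys was 1.17 for Lrp2 (16701 bp), 0.86 for Cubn (14935 bp), 1.45 for Clcn5 (11452 bp) and 0.81 for Ocrl (9486 bp). Dab2, with 7342 bp, stood at 0.097. The shorter members were lower, at -0.92 for Rab11fip3 (6789 bp), -0.32 for Ctns (3391 bp) and -1.53 for Amn (1843 bp). GC content differed between the members as well. In the longest transcript it was 62.9% for Amn and 58.6% for Rab11fip3, and between 44.7% (Clcn5) and 49.4% (Ctns) for the others. The separate parts of length and GC content in these values were not tested. Across 16505 genes of that library, the Spearman correlation of the deviation from the gene's mean with gene length was 0.42, against -0.22 to -0.089 in the others, over genes that are not independent of each other. Corrected for GC content and length, the log2 fold changes over the 8 libraries were 1.70 for Lrp2, 1.51 for Cubn, 0.52 for Amn and 0.39 for Clcn5. Lrp2 and Cubn were still called (adjusted p = 0.00198 and 0.00382, edgeR). The corrected values of Lrp2 and Cubn over all 10 libraries were 0.94 and 0.95, with no call (adjusted p = 0.341 and 0.289, edgeR).

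Markers of the proximal tubule put the kidneys in an order like that of Lrp2 and Cubn, apart from DMM replicate 4. Of 18 such genes, mostly transporters and metabolic enzymes, 6 were called higher and 0 lower over the 8 libraries by edgeR, and 15 higher by DESeq2. Without DMM replicate 4 the count was 17, and without any other single library of the 8 it was 3 to 5. Beside this list and the marker lists below, edgeR called 452 of 16550 genes higher and 590 lower over the 8 libraries. DESeq2 called 749 higher and 911 lower of 30116, a base that was not passed through filterByExpr. Without DMM replicate 4, 1129 of 16828 genes were higher and 1281 lower (edgeR). Without any other single library of the 8, 131 to 377 were higher and 276 to 572 lower. Over all 10 libraries 0 of 18 were called by edgeR and 0 by DESeq2, and 1 had p under 0.05 before adjustment (edgeR) and a fold change past 1.5. Their summed level was 2971, 3174, 7541, 1429 and 2477 CPM in PBS replicates 1 to 5 and 2287, 5858, 7247, 4005 and 9088 CPM in DMM replicates 1 to 5. PBS replicate 3 was thus second to DMM replicate 5, whereas for Lrp2 and Cubn it was below DMM replicates 3, 4 and 5. DMM replicate 1 lay among the other PBS kidneys, as for Lrp2 and Cubn. The most abundant marker per kb was the fatty acid transporter gene Slc27a2, whose log2 fold change was 1.28 in the fit to 8 libraries (edgeR, adjusted p = 0.0753) and 0.73 in the fit to 10 (edgeR, adjusted p = 0.541). The marker with the smallest p was Keg1, at 1.27 in the fit to 8 libraries (edgeR, adjusted p = 0.00757) and 0.62 in the fit to 10 (edgeR, adjusted p = 0.537). No marker of this list was at 0 in any library. Relative to the PBS mean, the mean log2 CPM of the 18 markers stood at 0.10, 0.17, 1.60, -1.52 and -0.35 in PBS replicates 1 to 5 and at -0.43, 1.19, 1.36, 0.44 and 1.83 in DMM replicates 1 to 5. Over the 8 libraries the mean log2 CPM of Lrp2 differed between the groups by 1.92, of Cubn by 1.68, of Rab11fip3 by 0.59, of Dab2 by 0.51 and of Amn by 0.19, beside 1.61 for the markers. Lrp2 minus the marker mean differed by 0.31, less than its SD in DMM kidneys (1.10) and slightly more than that in PBS kidneys (0.28), and by -0.23 without DMM replicate 4. Cubn minus the marker mean differed by 0.075, less than either SD (0.43 and 0.98), and by -0.40 without that library. The correlation of Lrp2 with the marker mean was 0.79 over 10 kidneys and 0.99 over the 9 without DMM replicate 4, that of Amn 0.62 and 0.96, and that of Rab11fip3 0.92 and 0.98. Ocrl, at -0.26 and -0.58, ran against the markers. The part of the proximal tubule markers in the results for the members was not tested.

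Some markers of later tubule segments were also called higher. Over the 8 libraries, loop and distal tubule markers had 5 of 8 called higher (DESeq2 5, 7 without DMM replicate 4, 1 to 5 without any other library). Their summed level was 3238, 2699.7, 4571, 2010.0 and 1763 CPM in PBS and 2769, 4396, 5079, 2167 and 5636 CPM in DMM replicates 1 to 5. Umod, the most abundant, was at 0.62 in the fit to 8 libraries (edgeR, adjusted p = 0.389) and 0.36 in the fit to 10 (edgeR, adjusted p = 0.679), and Kcnj1, with the smallest p, at 0.92 in the fit to 8 libraries (edgeR, adjusted p = 0.00928) and 0.61 in the fit to 10 (edgeR, adjusted p = 0.387). Collecting duct markers had 2 of 10 called higher (DESeq2 3, 5 without DMM replicate 4, 1 to 2 without any other library). Their summed level was 462, 449, 687, 363 and 423 CPM in PBS and 547, 608, 720.0, 387 and 645 CPM in DMM replicates 1 to 5, and the most abundant was Hsd11b2, at 0.18 in the fit to 8 libraries (edgeR, adjusted p = 0.712) and 0.12 in the fit to 10 (edgeR, adjusted p = 0.832). Pvalb and Avpr2, of these 2 lists, had at most 5 and 6 counts in a library and were not tested, and they were at 0 in 6 and 2 libraries.

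Some markers of fibroblasts and immune cells were called lower over the 8 libraries, where Lrp2 and Cubn were called higher. Fibroblast and pericyte markers had 3 of 9 called lower (DESeq2 5, 5 without DMM replicate 4, 1 to 3 without any other library). Their summed level was 6664, 9806, 5260.2, 14478 and 9223 CPM in PBS and 11308, 5340.2, 3750.1, 7371 and 4299.8 CPM in DMM replicates 1 to 5. PBS replicate 3 was thus the lowest PBS kidney and DMM replicate 1 the highest DMM kidney, the reverse of their place for Lrp2. Col1a1, the most abundant, was at -1.07 in the fit to 8 libraries (edgeR, adjusted p = 0.0750) and -0.53 in the fit to 10 (edgeR, adjusted p = 0.594), and Postn, with the smallest p, at -1.78 in the fit to 8 libraries (edgeR, adjusted p = 0.00683) and -0.86 in the fit to 10 (edgeR, adjusted p = 0.532). Macrophage markers had 3 of 10 called lower (DESeq2 6, 6 without DMM replicate 4, 2 without any other library). Their summed level was 1736, 1652, 1388, 1721 and 1904 CPM in PBS and 1556, 1087, 925, 865 and 946 CPM in DMM replicates 1 to 5, with C1qb the most abundant, at -1.35 in the fit to 8 libraries (edgeR, adjusted p = 0.0479) and -0.98 in the fit to 10 (edgeR, adjusted p = 0.388), and Fcgr1 the one with the smallest p, at -1.74 in the fit to 8 libraries (edgeR, adjusted p = 0.000385) and -1.10 in the fit to 10 (edgeR, adjusted p = 0.385). T and B cell markers had 2 of 10 called lower (DESeq2 4, 4 without DMM replicate 4, 0 to 4 without any other library). Their summed level was 45.2, 51.3, 46.6, 41.3 and 69.8 CPM in PBS and 45.4, 35.5, 16.4, 18.2 and 21.8 CPM in DMM replicates 1 to 5, with Trbc2 the most abundant, at -0.87 in the fit to 8 libraries (edgeR, adjusted p = 0.243) and -0.67 in the fit to 10 (edgeR, adjusted p = 0.505), and Cd2 the one with the smallest p, at -1.84 in the fit to 8 libraries (edgeR, adjusted p = 0.0191) and -1.21 in the fit to 10 (edgeR, adjusted p = 0.388). Cd79a was at 0 in 1 library.

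Podocyte, endothelial and tubular injury markers had 0 of 8, 0 of 10 and 0 of 10 called over the 8 libraries by edgeR, with 0 by DESeq2 and 0 at p under 0.05 before adjustment and a fold change past 1.5. Without DMM replicate 4 the injury markers had 3 called lower. The summed levels were 834, 914, 730.5, 844 and 873 CPM in PBS and 1038, 828, 724, 1108 and 715 CPM in DMM replicates 1 to 5 for podocyte, 954, 1154, 1139, 1315 and 1019.7 CPM in PBS and 1212, 1020.3, 1129.9, 1216 and 1166 CPM in DMM replicates 1 to 5 for endothelial, and 13911, 16016, 13326, 19375 and 16532 CPM in PBS and 16835, 19179.8, 20645, 20844 and 16494 CPM in DMM replicates 1 to 5 for injury markers. Podxl, Plvap and Spp1 were the most abundant of them, at 0.020, -0.084 and 0.30, and Ehd3 and Krt18 had the smallest p of the endothelial and injury markers, at 0.25 and -0.29 on the log2 scale over the 8 libraries. None of these markers was at 0 in any library. Over all 10 libraries edgeR called 0 genes of the 8 lists of other cell types, with 2 higher and 11 lower at p under 0.05 before adjustment and a fold change past 1.5, and DESeq2 called 1, a collecting duct marker. The part of these cell types in the results for Lrp2, Cubn and the other members was not tested.

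Lists of genes from the wider uptake pathway were set beside Lrp2 and Cubn. The background over the 8 libraries was 2.73% of all tested genes called higher and 3.56% called lower (edgeR). The background was larger without DMM replicate 4, at 1129 of 16828 genes higher and 1281 lower (edgeR). With DESeq2 it was 749 higher and 911 lower of 30116, a base not passed through filterByExpr and so not comparable with that of edgeR. Over the 8 libraries the median log2 fold change was 0.57 for the members and 0.021 for all tested genes. It was below that of the members in each of 7 pathway lists. Among the marker lists it was above that of the members for the proximal tubule (1.48) and the loop and distal tubule (0.94). In the other marker lists it was below. Relatives of megalin and its chaperone had 0 of 12 called in either direction (edgeR and DESeq2, with 2 higher and 0 lower at p under 0.05 before adjustment and a fold change past 1.5) and a median of 0.14. Without DMM replicate 4, 1 was higher and 1 lower. Lrp1, the most abundant of them per kb, was at -0.11 in the fit to 8 libraries (edgeR, adjusted p = 0.889) and 0.0064 in the fit to 10 (edgeR, adjusted p = 0.994) and Vldlr, with the smallest p, at 0.64 in the fit to 8 libraries (edgeR, adjusted p = 0.121) and 0.45 in the fit to 10 (edgeR, adjusted p = 0.491). Clathrin adaptors and coat proteins, the companions of Dab2, had 0 of 25 called (edgeR and DESeq2, with 1 higher and 1 lower before adjustment) and a median of 0.046, with 2 lower without DMM replicate 4. Clta was the most abundant, at -0.090, and Myo6, the gene of a motor that binds Dab2, had the smallest p, at 0.65 in the fit to 8 libraries (edgeR, adjusted p = 0.116) and 0.49 in the fit to 10 (edgeR, adjusted p = 0.430).

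Early and recycling endosome genes, the companions of Rab11fip3, had 1 of 26 higher and 0 lower (DESeq2 1 and 0) over the 8 libraries and a median log2 fold change of 0.099. The called gene was Myo5b, a motor of recycling endosomes, at 0.68 in the fit to 8 libraries (edgeR, adjusted p = 0.0439) and 0.47 in the fit to 10 (edgeR, adjusted p = 0.428). The list had 1 called gene without DMM replicate 2 and 0 without any other of the 8 libraries. Rab5c was the most abundant, at -0.25. Genes of endosomal acidification, which work beside Clcn5, had 4 of 25 higher and 0 lower (DESeq2 5 and 0) and a median of 0.13, with 3 without DMM replicate 4 and 1 to 4 without any other library. The proton pump subunit gene Atp6v0a4 had the smallest p there, at 1.09 in the fit to 8 libraries (edgeR, adjusted p = 0.00594) and 0.76 in the fit to 10 (edgeR, adjusted p = 0.378), and it overlaps D630045J12Rik on the same strand and Tmem213 on the opposite one. The most abundant, Atp6v1g1, was at -0.021. The other called genes of that list were Slc9a3, Slc9a8 and Atp6v1a, named here after their values were seen. Lysosomal genes, the companions of Ctns, had 0 of 30 higher and 1 lower (DESeq2 0 and 1) and a median of -0.071. Npc2, a cholesterol carrier, was the called gene, at -0.96 in the fit to 8 libraries (edgeR, adjusted p = 0.0135) and -0.74 in the fit to 10 (edgeR, adjusted p = 0.378). Of this list 0 genes were called lower without PBS replicate 5, 2 without DMM replicate 2, and 2, with 1 higher, without DMM replicate 4. Psap, the most abundant, was at -0.24. Ehd3 is both in the endosome and in the endothelial list.

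Genes of cargo and vitamin handling had 2 of 18 higher and 2 lower (DESeq2 5 and 2) called over the 8 libraries and a median log2 fold change of 0.28. Of them, 6 were higher without DMM replicate 4, 3 without DMM replicate 2 and 1 without any other library, and 1 or 2 were lower each time. B2m was both the most abundant and the one with the smallest p, and it was lower, at -1.27 in the fit to 8 libraries (edgeR, adjusted p = 0.00683) and -1.01 in the fit to 10 (edgeR, adjusted p = 0.378). The genes called higher, named after their values were seen, were Mut, of vitamin B12 use, and Vdr, the vitamin D receptor. Regulators of the proximal tubule had 3 of 10 higher and 0 lower (DESeq2 3 and 0) and a median of 0.29, with 3 without DMM replicate 4 and 1 to 3 without any other library. The called genes were Hnf4a, the most abundant, at 0.88 in the fit to 8 libraries (edgeR, adjusted p = 0.0194) and 0.53 in the fit to 10 (edgeR, adjusted p = 0.482), Nr1h4, named after its values were seen, and Ppara, with the smallest p, at 1.73 in the fit to 8 libraries (edgeR, adjusted p = 0.0109) and 1.17 in the fit to 10 (edgeR, adjusted p = 0.387). PBS replicate 3, at 30.8 CPM, and DMM replicate 1, at 13.6 CPM, stood on the same sides for Ppara as for Lrp2. Over all 10 libraries edgeR called 0 genes of the 7 pathway lists, with 4 higher and 2 lower at p under 0.05 before adjustment and a fold change past 1.5, and DESeq2 called 1, a lower gene of cargo and vitamin handling.

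For each member, up to 3 of the protein-coding genes whose log2 CPM ran closest to it over the 10 libraries, among 14511 tested genes, are given with Pearson r, Spearman rho, and r without the 2 libraries farthest from the member's median. Lrp2 was followed most closely by Atp6v1a (0.995, 0.976 and 0.990), Thrb (0.994, 0.939 and 0.992) and Cyp2j11 (0.992, 0.976 and 0.987), of which Atp6v1a is a subunit of the proton pump. Cubn was followed by Epb41 (0.997, 0.988 and 0.995), Mtor (0.987, 0.964 and 0.983) and Immt (0.986, 1 and 0.972). For these receptors r was 0.972 or higher without the 2 farthest libraries, DMM replicate 4 and PBS replicate 4. The genes were picked for their r over all 10 libraries, so these values are no separate check. Amn was closest to Slc9a3r1 (0.985, 0.952 and 0.958), Ankzf1 (0.985, 0.939 and 0.959) and Pcyt2 (0.984, 0.867 and 0.945), of which Slc9a3r1 encodes a scaffold of the brush border and Ankzf1 overlaps Glb1l and Atg9a on the opposite strand. Dab2 was closest to mt-Co3 (0.977, 0.964 and 0.969) and Man1a (0.960, 0.952 and 0.947), with mt-Co3 read from the mitochondrial genome beside mt-Atp6. Clcn5 was followed by Aak1 (0.997, 0.988 and 0.886), Usp34 (0.996, 0.952 and 0.928) and Tulp4 (0.996, 0.915 and 0.861), and Ocrl by Igsf3 (0.993, 0.988 and 0.957), Haus3 (0.988, 0.976 and 0.916) and Rabgap1 (0.981, 0.915 and 0.892), of which Rabgap1 overlaps Strbp on the opposite strand. For Clcn5 and Ocrl the values without the 2 farthest libraries were lower, and DMM replicate 4 is among those libraries. Rab11fip3 ran with Fah (0.994, 0.976 and 0.993), Atp5c1 (0.991, 0.964 and 0.985) and Selenbp1 (0.990, 0.988 and 0.991), of which Fah ends tyrosine breakdown and Atp5c1 is a subunit of ATP synthase. Ctns had the weakest likeness, with Espn (0.899, 0.891 and 0.960), Tmem176a (0.886, 0.818 and 0.804) and Zfp664 (0.873, 0.830 and 0.725), of which Tmem176a overlaps Tmem176b on the opposite strand.

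The members lie on 6 chromosomes, with Lrp2 and Cubn far apart on chromosome 2 and Clcn5 and Ocrl on chromosome X. Lrp2 and Cubn have the most exons, 79 and 67 in their longest GENCODE transcript, and Amn, Clcn5 and Ctns have 12 each. Within the deposited gene bounds, Cubn overlaps Gm13270 on the opposite strand and Dab2 overlaps Gm16311 and Gm18888, whose mean levels were 0.605, 0.160 and 0.0635 CPM, and Clcn5 overlaps small RNA genes that had 0 counts. Whether counting used the strand is not stated in the sources used here, so that reads of such pairs cannot be told apart, though the partners were at under 1 CPM.

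Since Lrp2 and Cubn were the members called together, the start regions of both are shown. The bases from 250 to 51 before the RefSeq start of each gene (build GRCm38.p6) were searched on both strands for GTTAAT, a half-site of HNF1, for AGGTCA, the half-site of nuclear receptors, for the GC box GGGCGG, the E-box CACGTG and the TATA box TATAAA. Within these bases Lrp2 held the GC box at 143 and 88 bases before the start and none of the other motifs, and Cubn held no match. Bases nearer to the start than 51 were not searched. A TATA box or other motif there would have been missed, both in these genes and in the shares that follow. The GC box is found in 24.6% of 32851 such windows, GTTAAT in 5.33%, AGGTCA in 11.4%, CACGTG in 4.34% and TATAAA in 9.14%. The Lrp2 window has a GC content of 65.0% and lies at chr2:69586080-69586279, and the Cubn window has 38.5% and lies at chr2:13491927-13492126, both read from the minus strand with the GC box in capitals. The Cubn start in RefSeq is 63 bases from the nearest GENCODE start, and neither window overlaps an annotated exon.
Lrp2: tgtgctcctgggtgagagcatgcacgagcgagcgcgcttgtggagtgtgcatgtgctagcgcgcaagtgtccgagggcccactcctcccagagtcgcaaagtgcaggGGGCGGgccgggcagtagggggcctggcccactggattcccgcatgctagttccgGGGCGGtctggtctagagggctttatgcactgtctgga
Cubn: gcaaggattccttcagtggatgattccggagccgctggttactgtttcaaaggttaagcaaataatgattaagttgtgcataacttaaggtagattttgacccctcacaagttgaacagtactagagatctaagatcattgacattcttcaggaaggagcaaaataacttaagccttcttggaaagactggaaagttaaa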

How the data were processed

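Kidney reads were aligned to mm10 by the authors (the submitters name HISAT2 2.0.5), and the deposited read count per gene is not normalized. The counting tool, annotation and strand setting are not stated. The deposited FPKM, made by the authors, entered no test. The deposited group means, a signal of counts over DESeq2 size factors, showed which libraries the authors had averaged, and the authors' log2 fold changes and p-values were not used. Genes kept by filterByExpr were scaled by TMM and tested by quasi-likelihood F tests in edgeR 4.0.16 under R 4.3.3, with Benjamini-Hochberg adjustment, and the steps were tested on simulated data. SE is the log2 fold change over the root of F. Log2 CPM has a prior count of 2. Alternatives were DESeq2 1.42.0, other scalings, filters and thresholds, a block for replicate number, single libraries left out and, chosen after seeing the data, a loess correction for GC content and length (GENCODE M21, 99.9% of tested genes). Counts per gene list under DESeq2 and with single libraries left out were also added after seeing the data. Named genes were the 8 members, the most abundant gene per kb and the gene with the smallest p over the 8 libraries in each list, and up to 3 genes most like each member, though not all of these are printed. The members and the lists were chosen with earlier results of these data known. Total counts ran from 15722500 to 19475800.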

Additional observations from a re-analysis of the deposited data

Results flagged for a closer look

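Among 16 groups of 5 kidneys, made of 8 genes in PBS and DMM, 3 held a kidney far from the others. For independent groups, chance gives about 1 in 20 groups and 0.8 in 16. The groups here are not independent, since the 8 genes were read in the same kidneys. The measure is the gap between the extreme kidney and its neighbour as a share of the whole range, with 0.71 as the limit for 5 samples. Clcn5 in DMM replicate 4, at 338 CPM, had a gap of 0.933 of the range. Ocrl in the same kidney, at 59.4 CPM, had 0.830. Lrp2 in PBS replicate 3, at 1142 CPM, had 0.720. The measure was taken on CPM, and the count of 3 depends on that scale. On log2 CPM, Lrp2 stood at 10.2 in PBS replicate 3, 8.90 in PBS replicate 1 and 7.78 in PBS replicate 4. That gap was under the limit. The cause was not tested for any of the 3 groups.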

How the results depend on the processing

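Of 280 refits of the 8 members, 262 kept the direction and the side of the threshold, 3 lost a call, 4 gained 1 and 11 changed sign. Lrp2 and Cubn stayed above 0 in all of them, with log2 fold changes of 0.82 to 1.97 and 0.90 to 1.73 in the fits that start from all 10 libraries (adjusted p = 0.0138 to 0.743 and 0.0113 to 0.702). Within the 8 libraries they ranged from 1.58 to 2.13 and 1.48 to 1.93 (adjusted p = 7.37e-07 to 0.185 and 6.15e-07 to 0.219, edgeR or DESeq2). Signs changed for members near 0 alone: with library size alone Ocrl was at -0.060 and -0.094 and Ctns at -0.014 and -0.040 over 10 and 8 libraries, a scaling that moved the median of all genes over the 8 from 0.021 to -0.093. With the GC content and length correction Ocrl was at -0.026 and -0.046. With single libraries left out, Amn ranged from -0.025 to 0.29 over the 10, Ocrl from -0.15 to 0.12 over the 10 and from -0.20 to 0.15 over the 8, and Ctns from -0.014 to 0.14 over the 8. Over the 8 libraries members called were 1 to 3 in place of 2, with 1 without PBS replicate 5 and 3 without DMM replicate 4, and 0 at an adjusted p under 0.01. Genes called were 1042 over the 8, 1660 with DESeq2 and 292 at an adjusted p under 0.01, and with single libraries left out 407 to 2410, with 592, 547, 477 and 407 without PBS replicates 1, 2, 4 and 5, and 494, 2410 and 470 without DMM replicates 3, 4 and 5. With library size alone 276 were higher and 700 lower, and with the GC content and length correction 787 and 688, against 452 and 590. Over all 10 libraries edgeR called 0 genes, against 315 higher and 678 lower at p under 0.05 before adjustment and a fold change past 1.5. DESeq2 called 50, leaving out DMM replicate 1 gave 486 with 0 for every other library, and the 8 libraries gave 1042 genes and 2 members. Same-numbered kidneys did not deviate together (r of -0.22 to 0.34 over 5 numbers), so the numbers were not taken as pairs. With the replicate block, 0 members and 0 genes were called over the 8 libraries and 0 and 0 over all 10 (edgeR). Before adjustment, 790 genes were higher and 1021 lower over the 8. Lrp2 stood at 2.10 and Cubn at 1.72 over the 8 (adjusted p = 0.185 and 0.219, edgeR). Only numbers 2, 4 and 5 occur in both groups of the 8. That fit therefore changed both the block and the libraries that inform the contrast. The causes of these changes were not tested. Each member had at least 407 reads in every library, and the effect of depth on the calls was not tested.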

Other observations

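Slc26a4, the gene of the chloride and bicarbonate exchanger pendrin of intercalated cells, was called higher over the 8 libraries. It was at 25.7 ± 6.26 CPM (SD, n = 4) in PBS and 53.7 ± 2.64 CPM (SD, n = 4) in DMM kidneys of the 8 libraries, with PBS replicate 3 at 36.3 CPM and DMM replicate 1 at 50.7 CPM, both nearer to the mean of their own group. Its log2 fold change was 1.06 over the 8 libraries (adjusted p = 0.0118, edgeR) and 0.93 over all 10 (adjusted p = 0.378, edgeR, unadjusted p = 0.000226). Slc26a4 was named as the collecting duct marker with the smallest p over the 8 libraries.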
